A study of Mus musculus with 6 samples.

Results

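The 9 genes described here carry iron into the mitochondrial matrix or build iron-sulfur clusters there: Slc25a37, Slc25a28, Iscu, Nfs1, Lyrm4, Hscb, Glrx5, Isca1 and Isca2. They were chosen by symbol, and all 9 were found among the 24411 genes of the deposited tables and among the 17110 genes that were tested. RNA was sequenced from whole testes of age-matched C57BL/6 mice, a standard inbred strain, with no treatment named. In 3 libraries the genotype label was MRP5-/- and MRP9-/- (labelled DKO, for double knockout), and in the other 3 it was Wildtype (labelled WT). MRP5 and MRP9 are membrane transporters of the ABCC family, encoded by Abcc5 and Abcc12. The labels give neither the age in weeks nor the design of the 2 alleles, and no cell type is named to which the loss is restricted.

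An iron-sulfur cluster is a small inorganic cofactor that carries electrons or holds a protein in shape. Iron crosses the inner mitochondrial membrane through the mitoferrins. A cysteine desulfurase then supplies sulfur to a scaffold protein, on which the cluster forms. A chaperone pair releases the new cluster to a glutaredoxin, and later factors turn it into the larger clusters that the respiratory chain and lipoate synthesis need. A separate machinery outside the mitochondrion depends on this pathway and serves enzymes of DNA and RNA metabolism. In the testis, germ cells remodel their mitochondria as they mature, and the respiratory chain of sperm is packed into the midpiece.

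Slc25a37 was the only one of the 9 genes that passed the test between the groups. Its transcript rose 1.28-fold in libraries labelled DKO. The other mitochondrial iron carrier, Slc25a28, lay on the opposite side at 0.853-fold, and the scaffold gene Iscu at 0.827-fold, without passing. Isca2, a late assembly factor, was at 1.22-fold and also did not pass. The share of genes called among the 9 (1 of 9) is close to the 10.8% called among all tested genes (5.75% higher and 5.1% lower), which is no result about the group. The median log2 fold change of the 9 was -0.0945, beside -0.0042 over all tested genes.

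The libraries differed in ways that bear on these values. Those labelled DKO held 42673615 to 67131103 expected counts and those labelled WT 26753721 to 31745969, with no overlap. The mean fragment length recovered from the tables was 276 to 317 bases against 230 to 258 bases, again with no overlap (exact two-sided permutation p = 0.1 for each, the smallest that 3 against 3 libraries allow). Abcc12 fell from 160 ± 3.93 to 79.0 ± 5.56 CPM (counts scaled to the normalized size of each library), whereas Abcc5 was higher in libraries labelled DKO, at 16.8 ± 0.190 against 11.4 ± 0.898 CPM (SD, n = 3 each; edgeR adjusted p = 0.000307 and 0.0225). The Abcc5 transcript was thus not reduced in the libraries labelled DKO. Without the design of the alleles, the transcript level alone cannot test the label, and groups are named by their labels throughout. Every marker list of the germ cells was detected, led by elongating spermatid genes, whose 10 markers summed to between 108500 and 126800 TPM. The summed level of 12 Sertoli cell markers was lower in libraries labelled DKO (1716 to 2112 TPM against 2224 to 2841 TPM). Of these, 5 of 12 were called lower, beside 5.1% of all tested genes. Clu, Defb19 and Cst12 had the highest levels in that list. Among the markers not called, Wt1, Fshr, Gata4 and Sox9 were at 0.08, 0.08, -0.03 and -0.15 on the log2 scale. The others not called, Amh, Inhbb and Clu, were lower, at -0.48, -0.24 and -0.21. Of 8 Leydig cell markers, 2 were called lower (beside 5.1% of all tested genes), Star at -0.79 and Insl3 at -1.12 on the log2 scale (edgeR adjusted p = 0.0225 and 0.0358). Of those not called, Cyp17a1, Lhcgr, Hsd17b3, Nr5a1 and Cyp11a1 were at -0.50, -0.48, -0.48, -0.23 and -0.20. Hsd3b1 went the other way, at 0.21, and was not called either. The median was -0.478, and the summed level was 849.8 to 1487 TPM against 1464 to 3065 TPM, ranges that overlapped. The summed level of 10 spermatocyte markers was higher in libraries labelled DKO (1004 to 1212 TPM against 887.5 to 954 TPM). Of these, 3 of 10 were called higher, beside 5.75% of all tested genes. In whole tissue, fewer cells of a type and less RNA per cell cannot be told apart, and the part of these shifts in the results on the 9 genes was not tested.

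Levels of different genes were compared in TPM, transcript abundance per effective length on a total that is the same in every library. Isca1 was the highest of the 9 in every library, at 176 to 195 TPM, which placed its mean above 93.8% of tested genes. Iscu followed in every library, at 67.9 to 103 TPM. Slc25a28, Isca2 and Nfs1 formed a middle group whose ranges overlapped, at 39.3 to 52.1, 32.9 to 50.1 and 31.5 to 42.0 TPM. Slc25a37 and Hscb, at 13.7 to 18.0 and 13.3 to 15.1 TPM, overlapped in the same way. Glrx5 came next at 7.53 to 9.33 TPM, and Lyrm4 was the lowest in all 6 libraries, at 4.30 to 5.61 TPM. The order therefore held from library to library except among neighbours within those overlapping groups. Summed over the 9 genes, libraries labelled DKO held 434.5, 433.3 and 440.7 TPM and those labelled WT 440.7, 446.8 and 455.2 TPM.

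**Figure D1:**
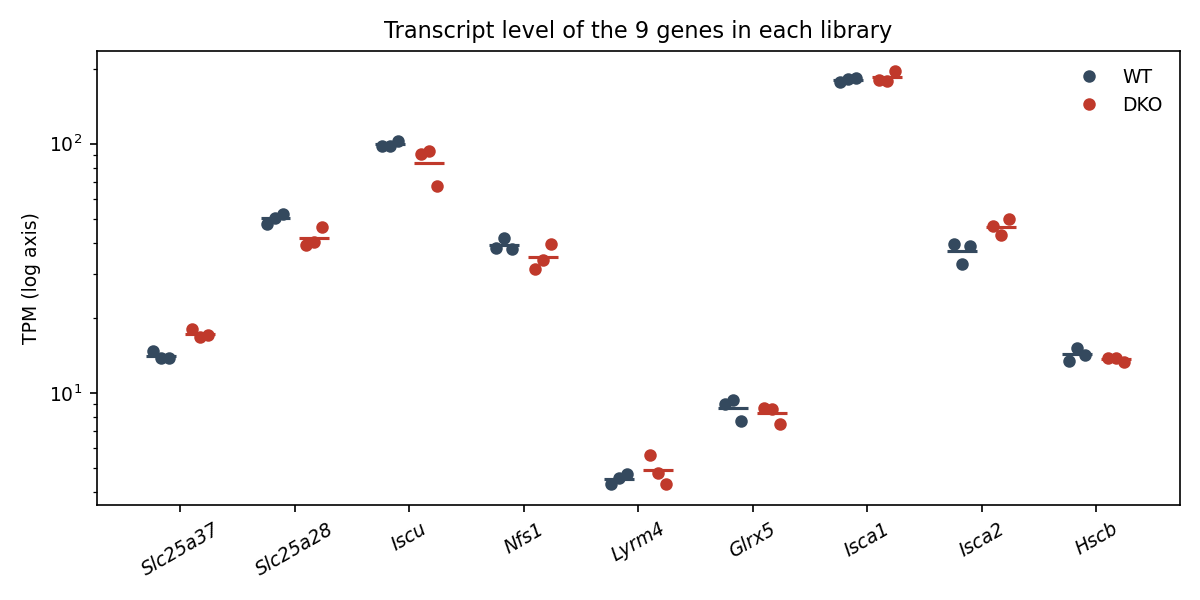
Transcript level of each gene in TPM on a log axis, with 1 point per library, libraries labelled WT in dark blue, libraries labelled DKO in red, and a line at each group mean. Isca1 and Iscu are highest, at 176 to 195 and 67.9 to 103 TPM, and Lyrm4 is lowest, at 4.30 to 5.61 TPM.

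The mitoferrins are carriers of the inner mitochondrial membrane that bring iron into the matrix. Slc25a37 encodes mitoferrin-1, known for supplying the iron for heme in developing red cells, and Slc25a28 encodes mitoferrin-2, which is expressed broadly. Slc25a37 lies at chr14:69241848-69285544 and Slc25a28 at chr19:43663801-43675006 (GRCm38.p6, the assembly behind mm10), both on the minus strand. Their coding sequences are 1014 and 1092 bases long and 71.1% identical over 1002 aligned bases. The most alike stretch of 90 bases is shown because it tells whether fragments of these relatives could have been exchanged in counting. It runs from coding base 583 to 672 in Slc25a37 and from 664 to 753 in Slc25a28, 5′ to 3′, with the 13 differing bases in capitals (GENCODE M21 transcripts that carry the RefSeq accessions of the tables).
Slc25a37: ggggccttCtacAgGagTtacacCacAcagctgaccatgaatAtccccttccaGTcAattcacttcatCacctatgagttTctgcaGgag
Slc25a28: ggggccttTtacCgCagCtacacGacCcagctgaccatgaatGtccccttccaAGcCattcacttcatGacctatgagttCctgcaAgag
The longest run of identical bases anywhere in these 2 transcripts is 15 bases, far below the fragment lengths, and all counts of both genes were whole numbers, with none shared out between genes. In GENCODE M21 the Slc25a37 transcript overlaps Gm31748 by 381 bases and Gm27223 by 92 bases on the other strand, genes absent from the deposited data. Strand handling in counting is not given in the sources used here, so reads in those overlaps cannot be assigned with certainty.

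Slc25a37 had 49.4, 47.0 and 44.6 CPM in libraries labelled DKO and 40.0, 34.3 and 35.9 CPM in those labelled WT. Each library labelled DKO was above each library labelled WT. The log2 fold change was 0.36 (SE 0.0805; edgeR quasi-likelihood test, adjusted p = 0.0301), which is 1.28-fold with a 95% interval from 1.13 to 1.45. In TPM the means were 17.3 ± 0.666 and 14.1 ± 0.551 (SD, n = 3 each), and limma on log2(TPM + 1) gave 0.27, which did not pass (adjusted p = 0.0562). The order of its CPM within each group was also the order of fragment length, and with fragment length as a covariate the log2 fold change was 0.13 (edgeR adjusted p = 0.999; across the 12 alternatives fitted to all 6 libraries, from 0.00342 to 0.999, with 8 passing). The call was also lost without DKO replicate 1, DKO replicate 2, WT replicate 2 or WT replicate 3, with log2 fold changes of 0.31, 0.35, 0.30 and 0.34 (adjusted p over the 6 fits that left out a library 0.0129 to 0.120).

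Because mitoferrin-1 is abundant in red cell precursors, erythroid markers are given beside it. Of 9 listed markers in the tables, Hba-a2 and Hbb-bs were at 0 in all libraries. The sum of the 9 was 21.1, 46.2 and 24.9 TPM in libraries labelled DKO and 23.6, 25.0 and 23.5 TPM in those labelled WT. Alas2, the erythroid heme synthesis enzyme, was at 17.1 to 22.9 TPM. Globin transcripts stood out in DKO replicate 2, where Hba-a1 reached 19.6 TPM against 1.16 to 3.75 TPM elsewhere. In CPM, Slc25a37 in that library lay between the other libraries labelled DKO. In TPM it was the lowest of that group, at 16.7 against 18.0 and 17.1 TPM. Alas2 itself had a log2 fold change of 0.02 and did not pass (edgeR adjusted p = 0.920).

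Slc25a28 had 34.2, 36.6 and 39.0 CPM in libraries labelled DKO and 42.3, 41.6 and 44.8 CPM in those labelled WT. The groups did not overlap, in the direction opposite to Slc25a37. The log2 fold change of -0.23 (SE 0.0763) did not pass (edgeR adjusted p = 0.0692), and its 95% interval runs from 0.760-fold to 0.958-fold. It was on the same side in all 18 alternative fits and passed in 1 of them, the fit without DKO replicate 3 (-0.28; edgeR adjusted p = 0.0360, range over the 6 fits that left out a library 0.0360 to 0.217). With fragment length as a covariate it shrank to -0.092 (edgeR adjusted p = 0.999). With the effective-length and length-trend offsets it was -0.17 and -0.18 (edgeR adjusted p = 0.135 and 0.138).

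Set against each other in TPM, the mitoferrins had a ratio of Slc25a37 to Slc25a28 of 0.458, 0.414 and 0.370 in libraries labelled DKO and 0.309, 0.274 and 0.264 in those labelled WT. Mitoferrin-2 was thus the more abundant transcript in every library, and the 2 levels lay closer together in each library labelled DKO than in any labelled WT.

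**Figure D2:**
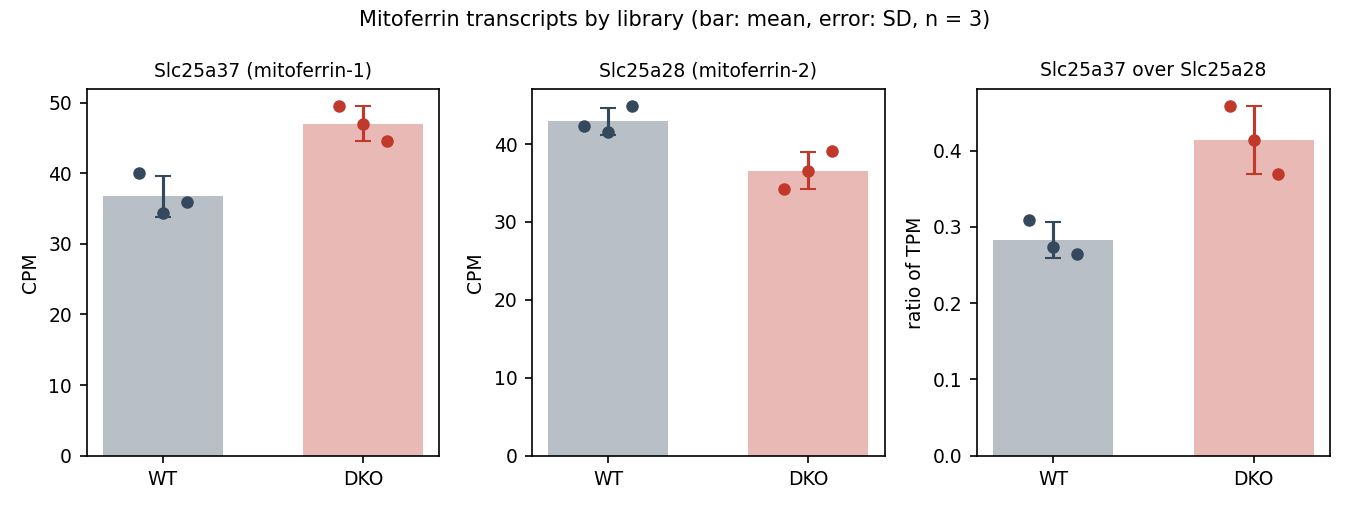
CPM of Slc25a37 (left) and Slc25a28 (middle), and the ratio of their TPM (right), by group, with 1 point per library, bars at the mean and error bars of 1 SD (n = 3). Slc25a37 is higher in each library labelled DKO (44.6 to 49.4 CPM against 34.3 to 40.0 CPM) and Slc25a28 lower (34.2 to 39.0 CPM against 41.6 to 44.8 CPM).

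The core of cluster synthesis is a complex in which Nfs1, the cysteine desulfurase, draws sulfur from cysteine, Lyrm4 (also called ISD11) keeps Nfs1 stable, and Iscu is the scaffold on which iron and sulfur meet. None of these 3 genes passed the test. Iscu had 36.9, 40.5 and 27.9 CPM in libraries labelled DKO and 42.8, 40.4 and 43.9 CPM in those labelled WT. DKO replicate 3 lay well below the other 5, and the other libraries labelled DKO came close to or into the WT range. In TPM the groups did not overlap, at 90.6, 93.1 and 67.9 against 97.8, 97.5 and 103. The log2 fold change was -0.27 (SE 0.118; edgeR adjusted p = 0.137; 95% interval 0.692-fold to 0.990-fold). Without DKO replicate 3 it was -0.13 (edgeR adjusted p = 0.304, range over the 6 such fits 0.0795 to 0.304), so the size of this difference rested largely on that library. The size also depended on the fit. The Iscu transcript has 887 bases, and with the effective-length and length-trend offsets the log2 fold change was -0.16 in both (edgeR adjusted p = 0.445 and 0.386). With fragment length as a covariate it was -0.58 (edgeR adjusted p = 0.999).

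Nfs1 had 39.1, 43.9 and 47.1 CPM against 47.4, 48.3 and 45.5 CPM (labelled DKO, then labelled WT). The groups overlapped, and the log2 fold change of -0.12 did not pass (edgeR adjusted p = 0.344; 95% interval 0.815-fold to 1.04-fold). The transcript of Nfs1 overlaps Gm28036, a gene absent from the deposited data, on the same strand by 256 bases. It also overlaps that of Romo1 on the other strand by 148 bases. Romo1, a small mitochondrial membrane protein, reached 117 TPM in libraries labelled WT and 73.5 TPM in those labelled DKO. Reads in those overlaps cannot be assigned with certainty either. Lyrm4, which overlaps Fars2 by 115 bases on the other strand, had 4.80, 4.25 and 3.60 CPM against 3.76, 3.70 and 4.01 CPM. Its group ranges overlapped (log2 fold change 0.13; edgeR adjusted p = 0.548), and with 99 to 243 counts per library its interval was wide, from 0.885-fold to 1.36-fold. The ratio of Iscu to Nfs1 in TPM overlapped too, at 2.44 ± 0.626 in libraries labelled DKO and 2.54 ± 0.200 in those labelled WT (SD, n = 3 each).

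Hscb is the co-chaperone that brings the loaded scaffold to the chaperone Hspa9, and Glrx5 is the glutaredoxin that receives the cluster and passes it on. Hscb had 4.80, 5.18 and 4.74 CPM in libraries labelled DKO and 5.12, 5.46 and 5.30 CPM in those labelled WT. Glrx5 had 8.72, 8.58 and 7.53 TPM against 9.01, 9.33 and 7.71 TPM. The ranges overlapped for both genes. The log2 fold changes of -0.11 and -0.09 did not pass (edgeR adjusted p = 0.519 and 0.673), and the 95% intervals were 0.782-fold to 1.09-fold for Hscb and 0.759-fold to 1.16-fold for Glrx5. Both transcripts are short, at 804 and 930 bases, and both differences changed sign when each library's trend on transcript length was removed (to 0.0152 and 0.0120). Hspa9 itself, the mitochondrial chaperone that also serves protein import, had a log2 fold change of 0.22 with no overlap between groups and did not pass (edgeR adjusted p = 0.0706).

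Isca1 and Isca2 are A-type assembly proteins that act together at the late step that yields larger clusters. Their transcripts differed greatly in level, with Isca2 at 0.252 ± 0.00982 of the Isca1 TPM in libraries labelled DKO and 0.206 ± 0.0218 in those labelled WT (SD, n = 3 each), without overlap. Their coding sequences are 60.9% identical, and the longest run shared by the transcripts is 10 bases, so the counts of this pair were separable as well. The promoters are printed because these partners differ so much in transcript level, beside that of Slc25a28, the iron carrier on the lower side. RefSeq promoter windows (GRCm38.p6, 250 bases before to 50 after a transcription start) were on hand for 6 of the 9 genes and missing for Slc25a37, Iscu and Hscb. The windows are chr13:59769740-59770039 on the minus strand for Isca1, chr12:84773020-84773319 on the plus strand for Isca2 and chr19:43674832-43675131 on the minus strand for Slc25a28. Capitals mark 3 motifs on either strand, CCAAT, the GC box GGGCGG and TGACG, the core of the cyclic AMP response element.
Isca1: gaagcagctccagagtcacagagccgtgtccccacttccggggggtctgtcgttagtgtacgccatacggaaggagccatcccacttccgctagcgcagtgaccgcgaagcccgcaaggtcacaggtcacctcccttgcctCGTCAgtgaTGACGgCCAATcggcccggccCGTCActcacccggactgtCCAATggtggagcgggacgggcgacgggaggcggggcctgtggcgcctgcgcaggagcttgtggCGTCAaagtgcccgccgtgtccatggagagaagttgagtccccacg
Isca2: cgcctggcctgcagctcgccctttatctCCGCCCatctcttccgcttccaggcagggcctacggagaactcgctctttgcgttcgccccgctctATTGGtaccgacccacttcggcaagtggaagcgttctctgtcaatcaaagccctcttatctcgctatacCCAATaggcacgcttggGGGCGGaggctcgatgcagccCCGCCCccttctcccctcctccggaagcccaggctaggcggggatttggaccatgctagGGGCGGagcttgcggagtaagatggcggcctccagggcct
Slc25a28: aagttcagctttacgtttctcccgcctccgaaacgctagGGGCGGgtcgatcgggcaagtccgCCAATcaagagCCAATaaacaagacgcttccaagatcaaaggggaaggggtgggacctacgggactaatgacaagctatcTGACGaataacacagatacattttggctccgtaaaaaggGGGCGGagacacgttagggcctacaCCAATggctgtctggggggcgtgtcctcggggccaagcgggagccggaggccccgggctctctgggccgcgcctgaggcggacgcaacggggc
Isca1 held 2 CCAAT, 4 TGACG and 0 GC boxes. Isca2 held 2 CCAAT, 4 GC boxes and 0 TGACG, and Slc25a28 held 3 CCAAT, 2 GC boxes and 1 TGACG. Of all 32851 promoter windows, 37.4% held CCAAT, 35.7% GGGCGG and 20.8% TGACG on either strand. These matches are a description of the letters and were not tested for any effect.

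Isca2 had 18.3, 18.1 and 19.95 CPM in libraries labelled DKO and 16.8, 13.3 and 16.2 CPM in those labelled WT. The groups did not overlap, and WT replicate 2 was lowest. The log2 fold change of 0.29 (SE 0.102; 95% interval 1.05-fold to 1.43-fold) did not pass (edgeR adjusted p = 0.0798). The Isca2 transcript has 868 bases. With the length trend of each library removed the log2 fold change was 0.41 and passed (edgeR adjusted p = 0.0372), and with an offset from the effective lengths it was 0.41 as well (adjusted p = 0.0434; across the 12 alternatives fitted to all 6 libraries, from 0.0372 to 0.999, with 2 passing). Those fits called 10.1% and 10.5% of all tested genes. Isca2 passed in 0 of the 6 fits that left out a library (edgeR adjusted p from 0.0634 to 0.295). Without WT replicate 2 its log2 fold change was 0.19. Isca1 had 206, 211 and 215 CPM against 203, 192 and 204 CPM, without overlap but with only 5.49% between the group estimates. In TPM its groups overlapped, at 180, 179 and 195 against 176, 181 and 183. Its log2 fold change of 0.08 did not pass (edgeR adjusted p = 0.452) and its 95% interval runs from 0.954-fold to 1.17-fold. Isca1 overlaps Etohd2 on the other strand by 187 bases, a gene at no more than 7.03 TPM. On the same strand Isca1 overlaps Gm49354 by 115 bases, a gene absent from the deposited data.

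**Figure D3:**
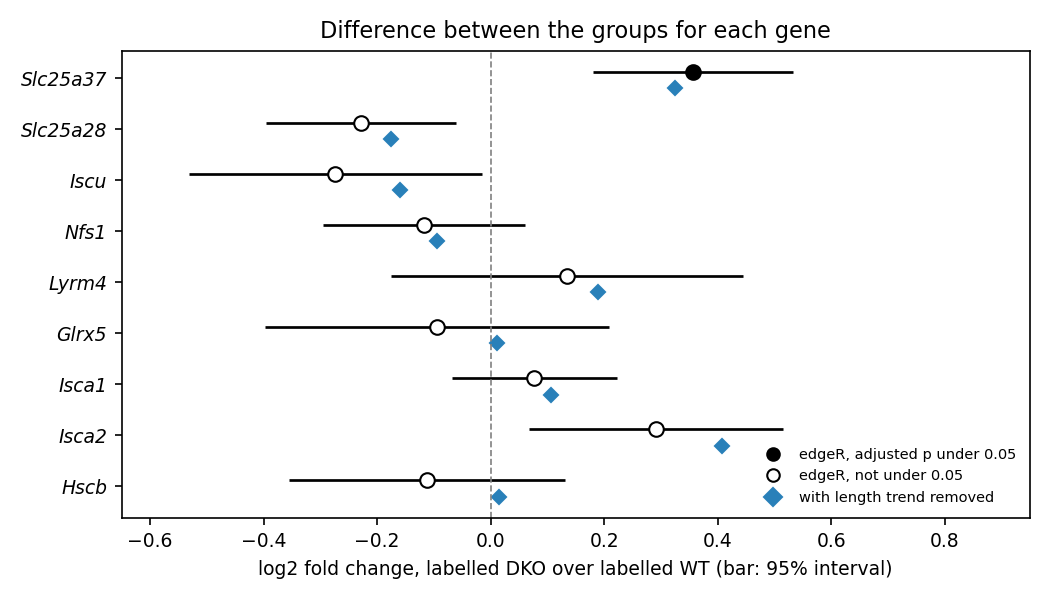
Log2 fold change of each gene, labelled DKO over labelled WT, with circles and 95% intervals from the edgeR test and diamonds after removing each library's length trend. The filled circle marks Slc25a37 at 0.36, while Slc25a28 and Iscu lie at -0.23 and -0.27, and Isca2 moves from 0.29 to 0.41 between the 2 fits.

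Across the 9 genes, 4 had groups that did not overlap in CPM (Slc25a37, Isca1 and Isca2 higher, Slc25a28 lower), beside 35.9% of all tested genes. At an unadjusted p under 0.05 there were 4 genes, namely Slc25a37, Slc25a28, Isca2 and Iscu, beside 5428 of all 17110 tested genes. The signs were mixed, with 4 genes above 0 and 5 below. The median size of the log2 fold change was 0.134 without regard to sign, beside 0.179 over all tested genes.

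**Figure D4:**
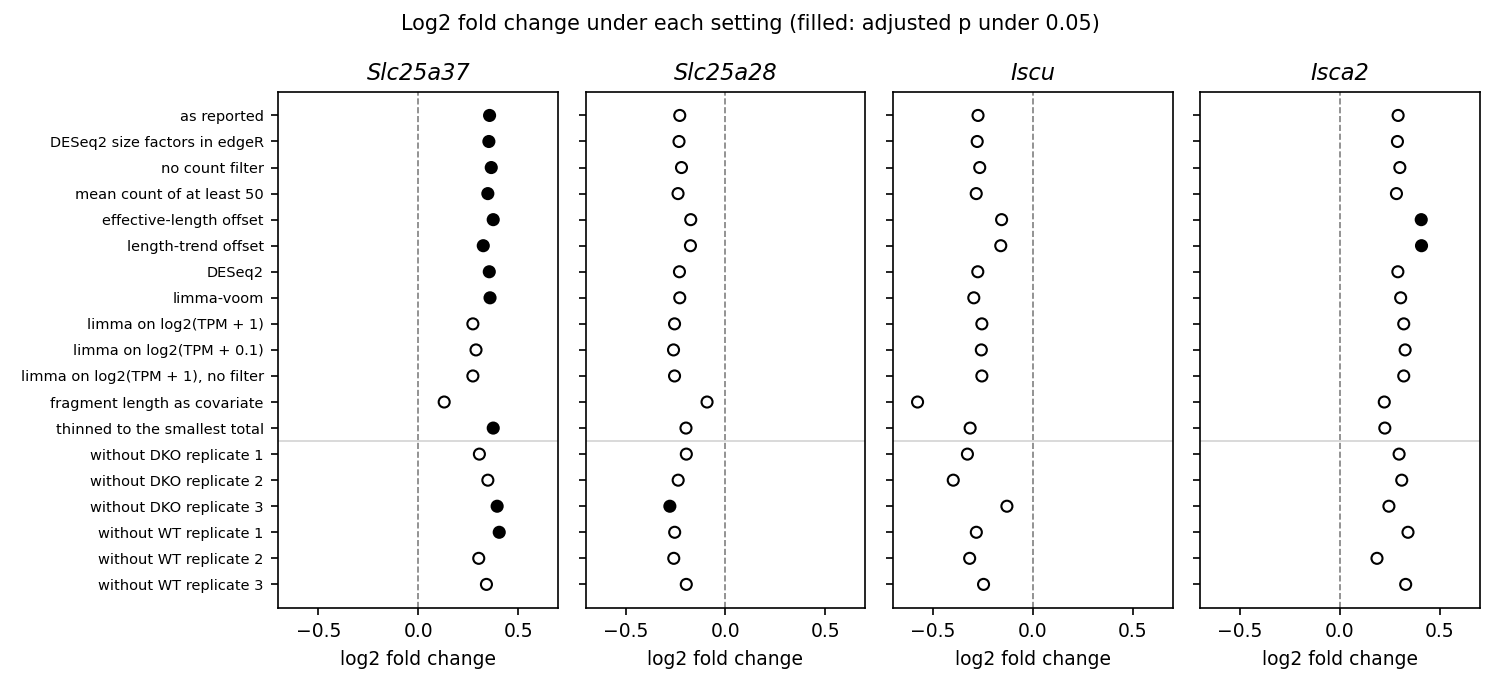
Log2 fold change of Slc25a37, Slc25a28, Iscu and Isca2 under the reported fit and 18 alternatives, with filled points at an adjusted p under 0.05 and a line above the fits that leave out 1 library. Each gene keeps its side of 0 throughout, while Slc25a37 ranges from 0.13 to 0.41 and Iscu from -0.58 to -0.13.

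The rest of the pathway was described with 4 lists of 71 symbols, of which 4 (Fdx2, Ciao3, Ciao2a and Ciao2b) are newer names of genes that the tables carry under the older symbols also listed (Fdx1l, Narfl, Fam96a and Fam96b). The lists thus hold 67 genes, all of them tested. Of these, 10 were called (14.9%, beside 10.8% of all tested genes), 3 higher and 7 lower. With the length trend removed 7 of the 67 were called, beside 10.1% of all tested genes. The count was 0 in each of the 4 lists without DKO replicate 1, without WT replicate 3, with fragment length as a covariate and with limma on log2(TPM + 1) with no filter. The cofactors and late factors of the mitochondrion had 1 of 20 called, lower, with a median log2 fold change of -0.0906. Bola1, a partner of Glrx5, had 5.12, 6.88 and 5.18 CPM in libraries labelled DKO and 8.65, 9.49 and 8.37 CPM in those labelled WT, so that it fell to 0.646-fold (log2 fold change -0.63, SE 0.131; edgeR adjusted p = 0.0269). Nfu1, a late carrier, was at -0.0079 (adjusted p = 0.955), and Abcb10, which stabilises mitoferrin-1 in red cell precursors, was at -0.14 (adjusted p = 0.369). Neither passed the edgeR test. Without WT replicate 2 the count in this list was also 0.

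The cytosolic assembly machinery had 2 of 11 called, both lower, beside 10.8% of all tested genes called, with a median of -0.101. Bola2, which works with a cytosolic glutaredoxin, had 4.01, 5.18 and 3.88 CPM in libraries labelled DKO and 8.42, 7.88 and 8.82 CPM in those labelled WT. It fell to 0.519-fold (log2 fold change -0.95, SE 0.131; edgeR adjusted p = 0.0153). Fam96b, a targeting factor that hands clusters to client enzymes, fell to 0.734-fold (edgeR adjusted p = 0.0360). The Bola1, Bola2 and Fam96b transcripts are short, at 729, 337 and 680 bases. With the length trend removed, Bola1 and Bola2 were at -0.49 and -0.64 and still passed (edgeR adjusted p = 0.0354 and 0.0221), whereas Fam96b was at -0.29 and did not (0.0736). The count in this list was 1 without DKO replicate 2 and 1 without WT replicate 2.

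Proteins that carry the clusters made up the other 2 lists. Among mitochondrial clients, 4 of 15 were called, beside 10.8% of all tested genes, with a median of -0.0775. Ndufs8, an iron-sulfur subunit of complex I, had 17.3, 23.7 and 18.2 CPM in libraries labelled DKO and 30.2, 35.9 and 31.1 CPM in those labelled WT, a fall to 0.608-fold (edgeR adjusted p = 0.0225). Its neighbour in the complex, Ndufs7, fell to 0.750-fold and Cisd1, an outer membrane protein with a cluster, to 0.791-fold (edgeR adjusted p = 0.0272 and 0.0396). Lias, which makes lipoate and uses up a cluster in doing so, rose to 1.19-fold (adjusted p = 0.0397). With the length trend removed, Ndufs8 and Lias still passed, at -0.60 and 0.29, and Ndufs7 and Cisd1 did not, at -0.28 and -0.24. The count in this list was 2 without DKO replicate 2 and 0 without WT replicate 2.

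Among cytosolic and nuclear clients, 3 of 21 were called, beside 10.8% of all tested genes, with a median of -0.0666. Cdkal1, a tRNA-modifying enzyme, rose to 1.29-fold and Abce1, a ribosome recycling factor, to 1.34-fold (edgeR adjusted p = 0.0309 and 0.0410). Pold1, the catalytic subunit of a replicative DNA polymerase, had 15.7, 20.4 and 19.4 CPM against 26.9, 25.0 and 24.1 CPM and fell to 0.731-fold (adjusted p = 0.0316). All 3 still passed with the length trend removed, at 0.37, 0.39 and -0.47, a fit in which 10.1% of all tested genes were called. Aco1, the cytosolic aconitase that doubles as an iron sensor when it lacks its cluster, was at -0.25 and did not pass (edgeR adjusted p = 0.127). The count in this list was 6 without DKO replicate 3, 1 without DKO replicate 2 and 0 without WT replicate 2.

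**Figure D5:**
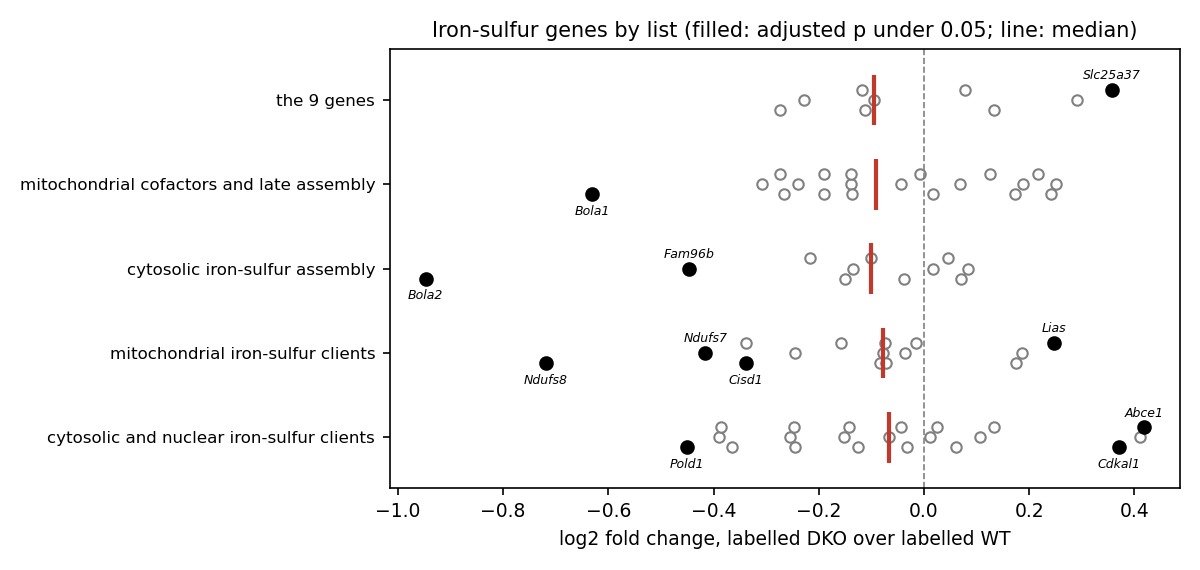
Log2 fold change, labelled DKO over labelled WT, of the 9 genes and of the 67 genes in 4 lists of the wider pathway, with filled points at an adjusted p under 0.05 and a red line at each list's median. The medians lie between -0.101 and -0.0666, and the called genes fall on both sides of 0, from Bola2 at -0.95 to Abce1 at 0.42.

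The genes whose log2 CPM tracked each of the 9 most closely over the 6 libraries were listed as a description, since the 6 libraries fall into the 2 groups compared. For Slc25a37 these were Cryzl1 and Ncoa6 (Pearson's r 0.998 for each), and for Slc25a28 they were Med31 and Ap5z1 (0.993 and 0.989). Iscu was matched by H1fx and 0610012G03Rik (0.996 for each), Nfs1 by Fam83h and Asb6 (0.998 and 0.991) and Lyrm4 by Zfand5 and Vps41 (0.994 for each). Isca1 was matched by Mrpl54 and Bpi (0.994 and 0.993), Isca2 by D130020L05Rik and Ubac2 (0.991 for each), Hscb by Gpn3 and Zdhhc7 (0.993 and 0.991) and Glrx5 by Midn and Gm5460 (0.965 and 0.960). None of the 18 belonged to the pathway lists or to the 9 genes.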

How the data were processed

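The deposited tables are gene-level RSEM output, 1 per library with no pooling, per the file headers. The submitters' processing notes name STAR 2.7.0f, RSEM 1.2.31, DESeq2 1.12.3 and mm10, and filters and strand handling are not given in the sources used here. Expected counts deposited by the authors (93.2% whole numbers) were rounded. TPM values deposited by the authors, scaled by effective length, were used for levels between genes. The FPKM column deposited by the authors was left aside.

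Genes kept by filterByExpr (17110 of 24411) were scaled by TMM and tested with the quasi-likelihood test of edgeR 4.0.16, with Benjamini-Hochberg adjustment over all tested genes and a call at an adjusted p under 0.05. CPM are TMM-normalized. SE is the log2 fold change over the square root of F, and 95% intervals use the moderated degrees of freedom. Fragment length was recovered from the gap between the length and effective length columns (median over genes above 3000 bases). The fit was tested on simulated data. Named genes are the 9, Abcc5 and Abcc12, up to 5 called genes per list with the smallest p, fixed pathway genes (Hspa9, Abcb10, Nfu1 and Aco1, with others not reported here) and the 2 most correlated genes of each of the 9. Romo1, Fars2, Etohd2, Hba-a1, Alas2 and the named Sertoli and Leydig cell markers were added after their values were seen. The genes and lists were chosen with earlier results of these data known. Replicates are separate samples per the labels, with no batch or pairing given, so p-values measure the spread between these samples. Alternatives used DESeq2 1.42.0 and limma 3.58.1 among others.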

Additional observations from a re-analysis of the deposited data

How the results depend on the processing

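Over all genes, 1856 were called. The count was 2895 with DESeq2, 873 with limma on log2(TPM + 1), 863 on log2(TPM + 0.1), 2 on log2(TPM + 1) with no filter (4998 at an unadjusted p under 0.05) and 1 with fragment length as a covariate (545 unadjusted). Leaving out 1 replicate gave 7 to 3029. Of the 9 genes, 1 was called, 2 with the effective-length offset and 2 with the length-trend offset (Slc25a37 and Isca2), and 0 in the 3 limma fits on TPM and with the covariate. Leaving out 1 replicate gave 0 to 2. The median log2 fold change of the 9 moved from -0.0945 to 0.0204 and 0.0152 with the effective-length and length-trend offsets and to -0.144 after thinning to the smallest total, and ranged from -0.135 to -0.0133 without 1 replicate.

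Signs reversed for Nfs1 (0.12) and Lyrm4 (-0.23) with the covariate, for Glrx5 (0.0138 and 0.0120) and Hscb (0.0204 and 0.0152) with the effective-length and length-trend offsets. None of these values passed the threshold. The cause was not tested. The other 5 genes kept their sign in all 18 alternatives. Fragment length did not overlap between the groups, so the covariate and genotype cannot be told apart. No paired analysis was possible because replicate numbers were given in accession order and nothing in the labels ties a library of one group to one of the other. Counts were lowest at 99 to 243 for Lyrm4 and 109 to 224 for Glrx5.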
